A study of Mus musculus with 15 samples.

Results

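The TER119 positive and TER119 negative cells of the wild-type (WT) mouse fetal liver were compared, on 8 of the 15 arrays of the series. The cells came from FVB/NJ embryos at embryonic day E14.5. They were separated on magnetic columns with beads against TER119: the positive cells were those that the column held, and the negative cells were those left after depletion. There were 4 arrays titled WT TER119 positive and 4 titled WT TER119 negative, each numbered as replicates 1 to 4, and all of one genotype. The labels name no treatment. The other 7 arrays held the same 2 fractions from embryos labelled Klf3 knockout (KO), 3 positive and 4 negative, and served as arrays on which the WT differences could be read again. They also entered the estimate of each gene's spread on which the WT p-values rest. Each array was an Affymetrix MoGene 1.0 ST array, which measures transcripts with short probes, and every value is a log2 expression level after RMA normalization, so that a difference of 1 is a 2-fold change. Of 35399 probe sets, those with 1 gene symbol were kept and the brightest was taken for each gene, which left 19938 genes. Nothing in the labels ties a replicate to its own embryo or litter, so p-values rest on the spread of these samples alone, some of which may be technical.

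The fetal liver is the main site of blood formation in mid-gestation. Red cell precursors mature there from KIT-positive progenitors through proerythroblasts and erythroblasts. As they mature they take up iron, make haem and globin, build the spectrin skeleton under their membrane and finally lose their nucleus, often in contact with a central macrophage. TER119 is a red cell surface antigen that appears during this course, so it separates later red cell precursors from earlier progenitors. Myeloid, lymphoid and megakaryocytic cells, hepatocyte precursors (hepatoblasts), endothelium and stroma share the organ and are not red cell precursors.

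Arrays within a group resembled each other far more than arrays across the fractions. Correlations over all genes were 0.987 to 0.994 within WT TER119 positive arrays, 0.971 to 0.99 within WT TER119 negative arrays and 0.829 to 0.87 between them. The first principal component of the 8 WT arrays held 85.2% of the variance. The median SD of a gene was 0.142 in the positive and 0.21 in the negative arrays. No pair of arrays was a duplicate: the closest pair of a group still differed with an SD of 0.221 over genes. The positive arrays 1 and 4 had high Xist (10.95 and 11.05) and Y-linked genes at 3.98 to 4.68, whereas all 4 negative arrays had high Y-linked genes, so the sex of the embryos was not balanced between the groups. The labels name the arrays of each fraction in a style of its own, and any difference in handling that went with the fraction cannot be told apart from it. In such bulk samples fewer cells of a type and less RNA per cell cannot be told apart either.

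The fractions differed in a majority of genes. Limma's moderated test, with p-values adjusted over all 19938 genes (Benjamini-Hochberg, threshold 0.05), called 10486 genes (52.6%), of which 4693 (23.5%) were higher and 5793 (29.1%) lower in TER119 positive cells. At least a 2-fold change was seen in 4106 of them (20.6%), with 2240 higher (11.2%) and 1866 lower (9.36%). The large differences leaned towards higher levels in positive cells: 794 genes were at least 4-fold higher and 449 at least 4-fold lower, and 102 against 52 passed 16-fold. Without negative arrays 2 and 4 together, 1979 genes were at least 2-fold higher and 2171 lower, so the balance at 2-fold rests on those arrays. The 4 positive and the 4 negative values did not overlap for 9100 genes (45.6%, with 20.9% higher and 24.7% lower). The median difference, always positive minus negative on the log2 scale, was -0.09 over all genes and the median standard error (SE) was 0.13. These shares are the background against which each gene list is read. Of the 2240 genes at least 2-fold higher, 701 had a negative mean below the median level of all genes (5.41), and of the 1866 at least 2-fold lower, 418 had a positive mean below it. The arrays carry no detection calls, so a fold against such a dim level is nominal. This holds for every gene named below with such a level, whether or not it is repeated there.

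The 10 largest increases included genes known from different cell types. Tent5c, Alas2, Ube2o and Ypel4 are genes of maturing red cells, Cd5l is a gene of resident macrophages, and Ahsg, Serpinf2, Hpx and Apom encode plasma proteins made by hepatocytes, as Ugt2b34 encodes a hepatic glucuronosyltransferase. Their differences ran from 5.47 (Apom) to 6.22 (Ahsg). All of the 10 largest decreases were in genes of granulocytes or their precursors or in cystatin-type inhibitor genes: S100a9, S100a8, Stfa3, Csta3, Ms4a3, Mmp8, Retnlg, Cst7, Ngp and Prg2, from -5.94 (Ngp) to -6.76 (S100a9). Stfa3 and Csta3 belong to a family of near-identical copies, and their separate values are uncertain.

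**Figure D1:**
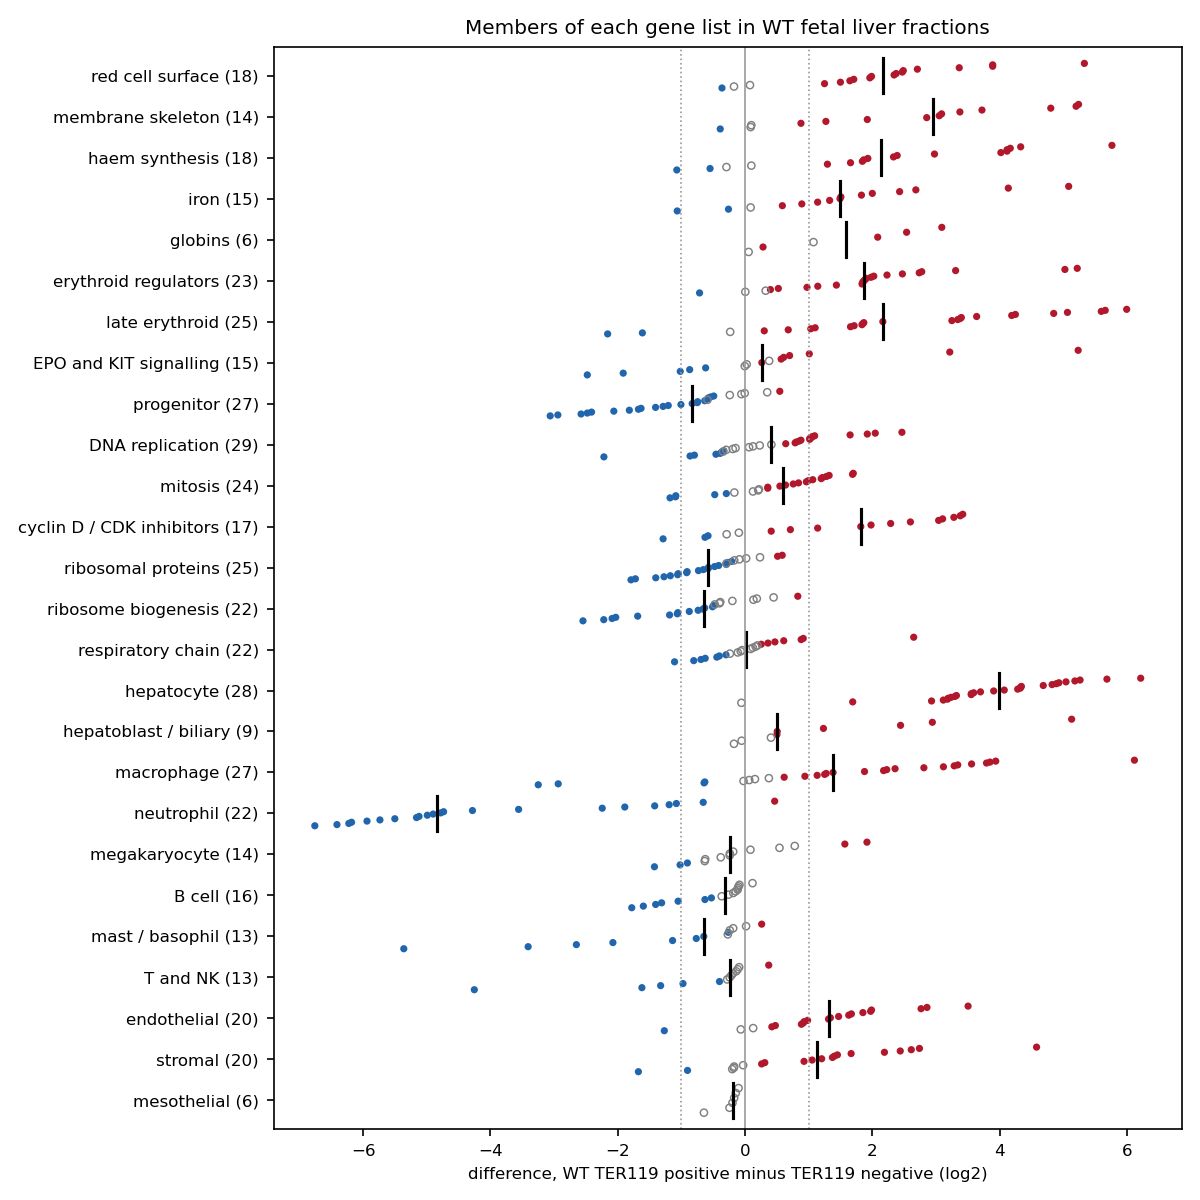
Difference between WT TER119 positive and WT TER119 negative cells (x axis, log2) for every measured member of each gene list except the list of sex-linked genes (y axis, number of measured members in brackets). Filled red and blue points passed the threshold as higher and lower, and open points did not. Black bars are list medians and dotted lines mark a 2-fold change. Red cell, hepatocyte, macrophage, endothelial and stromal lists lie to the right, with medians of 1.13 to 3.99, and the neutrophil list lies to the left at -4.84.

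Genes of the red cell surface were higher in TER119 positive cells. Of 18 measured members, 15 were higher, all of them at least 2-fold, 1 was lower and 2 were not called, and the median difference was 2.17. Slc4a1, which encodes the anion exchanger band 3, read 13.21, 13.20, 13.22 and 13.19 in positive arrays 1 to 4 and 7.89, 7.82, 8.33 and 7.45 in negative arrays 1 to 4. The 4 positive values were almost alike and lay far above every negative value, a 40.3-fold difference (5.33, SE 0.17, adjusted p = 3.12e-13). Gypc, which encodes glycophorins C and D, was 14.8-fold higher, Slc2a1, the glucose transporter GLUT1, 14.9-fold and Kel, the Kell blood group protein, 10.3-fold. The Rh complex genes differed by less, Rhd by 2.71 (SE 0.14) and Rhag, the Rh-associated glycoprotein, by 1.25 (SE 0.16). Rhag read 11.71, 10.99, 11.22 and 10.99 in the negative arrays, so it was high in the depleted fraction too. Slc14a1, the urea transporter of the Kidd blood group, was the member that was lower, at -0.36 (SE 0.12, adjusted p = 0.0166). The groups overlapped for Slc14a1, and its adjusted p was 0.0567 without negative array 3.

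The membrane skeleton genes differed by as much. Of 14 measured members 11 were higher (10 at least 2-fold) and 1 lower, with a median difference of 2.95. Epb42, which encodes protein 4.2 and links band 3 to ankyrin, read 11.94, 11.82, 11.98 and 11.80 in positive and 7.11, 6.58, 6.80 and 6.09 in negative arrays. Those groups lay 5.24 apart on the log2 scale (SE 0.18, adjusted p = 8.63e-13). Tmod1, the tropomodulin that caps actin filaments of the skeleton, was 36.8-fold higher and Tmcc2 28-fold. Sptb (beta-spectrin), Dmtn (dematin) and Ank1 (ankyrin) were 13.2-fold, 10.4-fold and 8.51-fold higher. Tmod3, the widely expressed tropomodulin, was the lower member, at -0.39 (SE 0.11), and its adjusted p was 0.0607 with the replicate number as a block.

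Haem synthesis and its mitochondrial transport were higher as a group. Of 18 measured genes 14 were at least 2-fold higher and 2 lower, with a median of 2.13. Alas2, the erythroid enzyme of the first step of haem synthesis, read 12.86, 12.78, 12.96 and 12.84 in positive and 7.23, 7.07, 7.27 and 6.82 in negative arrays. The difference was 54.4-fold (adjusted p = 6.52e-14). Alas1, the enzyme of the same step in other tissues, went the opposite way, with 6.76, 7.07, 6.57 and 7.06 in positive and 8.20, 7.57, 8.44 and 7.54 in negative arrays. That was a fall of 2.1-fold (adjusted p = 0.000212), without overlap. The carriers that serve the pathway in mitochondria were all above 16-fold higher: Abcb10 by 4.33, Slc25a39 by 4.17, Slc25a37 (mitoferrin-1, the iron importer) by 4.12 and Slc25a38, a glycine carrier, by 4.02. Ppox, a late enzyme of the pathway, was higher by 4.12 (SE 0.22). The haem exporter Flvcr1 was lower, at -0.55 (SE 0.18, adjusted p = 0.0157), with overlapping groups, and its adjusted p was 0.0579 without negative array 1.

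Iron handling genes were higher for the most part. Of 15 genes 12 were higher (10 at least 2-fold) and 2 lower, with a median of 1.49. Tfrc, the transferrin receptor, read 13.07, 12.96, 13.17 and 12.95 in positive and 11.64, 11.52, 11.32 and 11.64 in negative arrays. It was high in both fractions and 2.84-fold higher in the positive one. Slc11a2 (the iron transporter DMT1), Ftl1 (ferritin light chain) and Steap3 (the endosomal ferrireductase) were 6.43-fold, 5.39-fold and 4-fold higher. Hmox1, haem oxygenase, and Slc40a1, the iron exporter ferroportin, showed the largest differences of the list. Hmox1 read 10.57, 10.67, 10.53 and 10.56 in positive and 5.34, 5.22, 6.07 and 5.35 in negative arrays, and Slc40a1 11.84, 11.995, 11.96 and 11.86 in positive and 8.18, 7.63, 7.68 and 7.61 in negative arrays. Both are also genes of macrophages that recycle iron, and the macrophage list was higher in the same arrays (7.61 to 7.80 against 6.01 to 6.30 as list means). The part of those cells in the Hmox1 and Slc40a1 differences was not tested. Exoc6, whose product serves transferrin recycling, was lower, at -1.06 (SE 0.10).

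The promoters of 3 of the large erythroid increases are shown because they hold the letters AGATAA, a site that GATA factors such as GATA1 can bind, on the strand opposite to the one printed. Each is the 250 bases before the gene start in RefSeq (assembly GRCm38.p6), 5′ to 3′ on the gene's strand, with the match in capitals as TTATCT. They are Alas2 at chrX:150547167-150547416 (plus strand), Epb42 at chr2:121036878-121037127 (minus strand) and Trim10 at chr17:36869324-36869573 (plus strand), with the match starting 86, 226 and 163 bases before the gene start. These genes were chosen after their values and matches were seen.
Alas2: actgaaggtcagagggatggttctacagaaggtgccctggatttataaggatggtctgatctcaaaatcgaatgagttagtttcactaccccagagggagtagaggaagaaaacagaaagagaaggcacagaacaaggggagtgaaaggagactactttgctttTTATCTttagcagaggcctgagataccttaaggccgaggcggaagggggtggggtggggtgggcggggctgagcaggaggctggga
Epb42: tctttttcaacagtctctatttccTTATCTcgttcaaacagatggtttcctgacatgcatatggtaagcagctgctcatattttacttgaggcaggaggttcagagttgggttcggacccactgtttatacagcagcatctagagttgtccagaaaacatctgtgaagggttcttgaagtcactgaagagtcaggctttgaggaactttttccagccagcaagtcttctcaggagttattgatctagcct
Trim10: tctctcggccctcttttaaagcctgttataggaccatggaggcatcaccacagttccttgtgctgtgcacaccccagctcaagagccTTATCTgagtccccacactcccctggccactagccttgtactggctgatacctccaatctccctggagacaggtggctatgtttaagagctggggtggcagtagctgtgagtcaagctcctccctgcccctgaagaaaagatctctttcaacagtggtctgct
The match is not particular to such genes. On either strand it occurred in 9.99% of all 32851 promoters of this length, in 10.2% of the 108 promoters of genes at least 16-fold higher in positive cells and in 21.3% of the 47 promoters of genes at least 16-fold lower. At 2-fold the shares were 7.36% for higher and 6.65% for lower genes, both below that of all promoters. All promoters belong to 27025 symbols, of which 15614 were tested genes, so this background also holds genes that could not be called. A CACCC-type site, CCNCNCCC, where KLF factors such as KLF1 and KLF3 can bind, was searched in the same way and can overlap itself. It occurred in 45.9% of all promoters, 69.4% of those of the genes at least 16-fold higher and 51.1% of those at least 16-fold lower, and at 2-fold in 64.4% of those of higher and 56.6% of those of lower genes, both above that of all promoters. The median share of G and C was 52.4%, 56.2% and 49.6% in all promoters and the sets at 16-fold, and 59.2% and 56.8% in the higher and lower sets at 2-fold. The part of base composition in the shares of this C-rich motif was not tested, and a match is a description of letters and no evidence of binding.

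Globins could be read only in part. Of 14 names listed, 6 had a probe set of their own, and the adult alpha and beta globins were not among them. Hbb-bh1, an embryonic beta-type globin, was 8.53-fold higher in positive cells (3.09, SE 0.31, adjusted p = 2.99e-07). It read 8.86, 7.80, 8.16 and 8.20 in positive and 4.33, 5.56, 4.96 and 5.80 in negative arrays. The theta-type globins Hbq1a and Hbq1b were 5.82-fold and 4.24-fold higher. Hbb-bh2 was called higher by 0.28 (SE 0.10, adjusted p = 0.0192), at 4.41 and 4.13, both below the median level of all genes, and its adjusted p was 0.0697 without negative array 2. These 4 of the 6 were higher, and the embryonic globins Hbb-y and Hba-x were not called. Hbb-y read 12.05, 11.12, 11.79 and 11.59 in positive and 8.78, 11.07, 10.65 and 11.74 in negative arrays, a difference of 1.08 (SE 0.50) with an adjusted p of 0.0797. Negative array 4 lay above positive arrays 2 and 4, and negative array 1 far below all positive arrays. Without negative array 4 the difference was 1.47 with an adjusted p of 0.0189. Hba-x, the zeta-type globin, read 8.43, 7.74, 8.21 and 7.98 in positive and 6.79, 8.20, 7.66 and 9.47 in negative arrays, with the highest of all 8 values in negative array 4 (0.06, SE 0.42, adjusted p = 0.918).

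**Figure D2:**
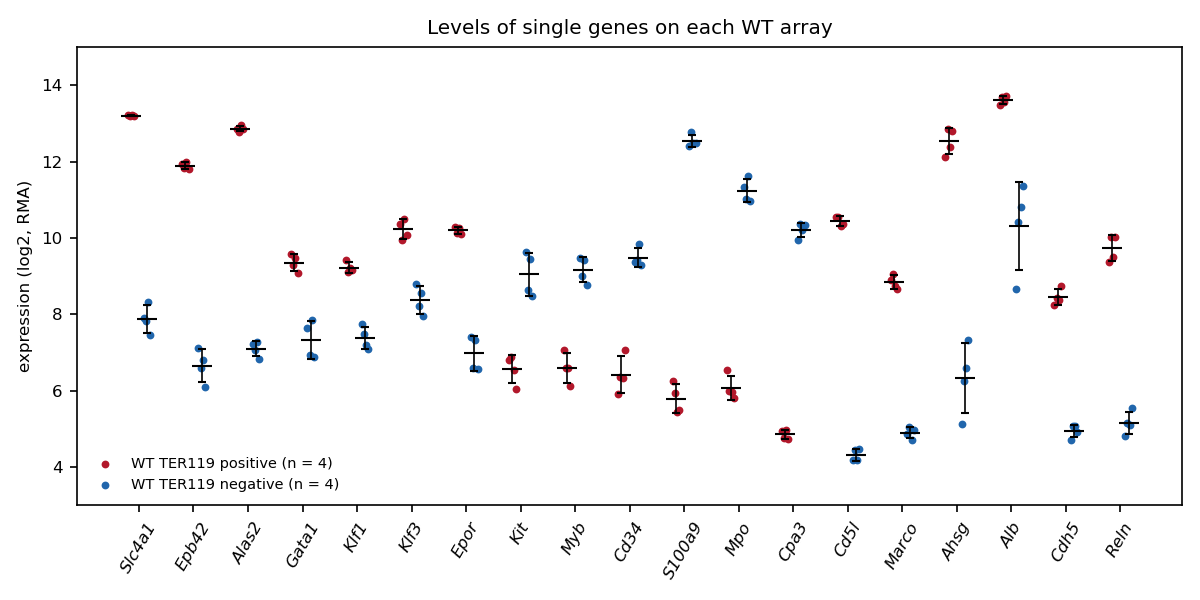
Log2 expression (y axis) of 19 genes (x axis) on each of the 4 WT TER119 positive arrays (red) and the 4 WT TER119 negative arrays (blue), with the mean and SD as bars. Red cell genes at the left and macrophage, hepatocyte, endothelial and stromal genes at the right are higher in the positive arrays, and Kit, Myb, Cd34, S100a9, Mpo and Cpa3 are higher in the negative arrays.

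Regulators of the erythroid programme were higher in TER119 positive cells. Of 23 genes 20 were higher (17 at least 2-fold), 1 lower and 2 not called, with a median of 1.87. Gata1, the master erythroid transcription factor, read 9.56, 9.29, 9.47 and 9.07 in positive and 7.64, 6.92, 7.85 and 6.89 in negative arrays. The groups lay apart, 4.07-fold (adjusted p = 1.01e-07). Its cofactor Zfpm1 (FOG1) was 6.67-fold higher and its partner Tal1 6.86-fold. Klf1, the erythroid Kruppel-like activator, read 9.41, 9.10, 9.20 and 9.15 in positive and 7.73, 7.49, 7.20 and 7.09 in negative arrays, and Klf3, a repressor of the same family, 10.37, 9.94, 10.50 and 10.08 in positive and 8.80, 8.22, 8.55 and 7.94 in negative arrays. The 2 family members thus differed by similar amounts, 1.84 (SE 0.15) and 1.85 (SE 0.19). The largest differences of the list were E2f2, an E2F factor that acts in erythroblast cell division (5.22, from 5.23 to 10.45), and Trim10, a RING finger protein of terminal red cell differentiation (5.03). Sox6, which represses embryonic globin, and Foxo3, which drives antioxidant genes in erythroblasts, were 9.92-fold and 5.55-fold higher. Bcl11a, the repressor of embryonic and fetal globin, was lower, at -0.71 (SE 0.28, adjusted p = 0.0412), with overlapping groups. Its adjusted p passed the threshold neither without positive array 2, 3 or 4 (0.0615, 0.054 and 0.142) nor without negative array 1 or 3 (0.127 and 0.0894).

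The microRNA locus that GATA1 is known to activate was read at its precursor by probe sets for Mir144 and Mir451a, which were chosen after their values were seen. Their mature forms are shown from RefSeq (GRCm38.p6, chromosome 11, plus strand), 5′ to 3′, with the seed, bases 2 to 8, in capitals.
mmu-miR-144-5p: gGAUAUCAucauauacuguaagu
mmu-miR-144-3p: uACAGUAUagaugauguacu
mmu-miR-451a: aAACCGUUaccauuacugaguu
The 3 seeds differ from one another. Mir144 read 7.08, 6.73, 7.26 and 7.11 in positive and 4.83, 4.82, 4.86 and 5.32 in negative arrays (2.09, SE 0.13, adjusted p = 5.35e-10). Mir451a read 6.74, 6.55, 7.02 and 6.52 in positive and 4.83, 5.30, 4.47 and 5.07 in negative arrays (1.79, SE 0.15, adjusted p = 4.25e-08). Neither overlapped between the groups. Such probe sets do not tell the arms or the mature forms apart.

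Genes of late red cell maturation were higher as a group, a list that holds genes of organelle clearance, loss of the nucleus, antioxidant defence and metabolism. Of 25 measured members 22 were higher (20 at least 2-fold) and 2 lower, with a median of 2.17. Tent5c, a poly(A) polymerase, read 11.94, 11.88, 11.93 and 11.85 in positive and 5.66, 5.78, 6.20 and 5.96 in negative arrays, a 63.9-fold difference and the largest of the list (adjusted p = 1.14e-14). Ube2o, the ubiquitin enzyme that removes ribosomal proteins in reticulocytes, read 11.78, 11.48, 11.80 and 11.55 in positive and 6.06, 5.96, 6.40 and 5.54 in negative arrays. Ube2h and Ube2l6, which are also ubiquitin-conjugating enzymes, were higher by 4.85 and 4.25, and Xpo7, an exportin of nuclear condensation, by 5.07. Ypel4 was higher by 5.60. Bnip3l, the receptor that marks mitochondria for removal, differed by less, 1.03 (SE 0.09), from a level of 11.73 in negative cells. Car1, a carbonic anhydrase of red cells, and Alox15, a lipoxygenase of reticulocytes, were lower, at -1.61 and -2.16. Car1 read 9.27, 9.48, 9.24 and 9.0 in positive and 10.52, 10.85, 10.63 and 11.44 in negative arrays, so it was high in both fractions and higher in every negative array. In mice Alox15 is also a gene of eosinophils, whose granule genes were higher in the same negative arrays (Prg2 at 11.99, 12.20, 12.10 and 11.97), and their part in its difference was not tested.

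The cytokine receptors of red cell formation moved in opposite directions. Among 15 genes of erythropoietin and KIT signalling 7 were higher and 5 lower, and the median was 0.27, or 0.17 after quantile normalization. Epor, the erythropoietin receptor, read 10.30, 10.12, 10.26 and 10.09 in positive and 7.41, 6.58, 7.33 and 6.58 in negative arrays (9.31-fold higher, adjusted p = 1.32e-09). Pim1, a kinase induced by its STAT5 signal, was 37.7-fold higher. Kit, the receptor of stem cell factor, read 6.80, 6.87, 6.54 and 6.05 in positive and 9.62, 8.64, 9.44 and 8.47 in negative arrays. All negative values lay above all positive ones, a 5.57-fold fall (adjusted p = 4.84e-07). The adaptor Gab2, which acts downstream of KIT, fell with it by 3.77-fold.

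Genes of haematopoietic progenitors were lower in positive cells. Of 27 measured members 21 were lower (13 at least 2-fold), 1 was higher and 5 were not called, with a median of -0.83. Cd34, the surface marker of stem and progenitor cells, read 5.92, 6.35, 6.32 and 7.07 in positive and 9.36, 9.41, 9.84 and 9.29 in negative arrays, a fall of 8.34-fold (adjusted p = 1.88e-09). Myb, the transcription factor of immature cells, read 7.06, 6.60, 6.59 and 6.12 in positive and 9.48, 9.003, 9.41 and 8.77 in negative arrays, a fall of 5.96-fold. Cd48, Angpt1, a ligand of the TIE2 receptor, and the receptor Flt3 were lower, at -2.94, -2.41 and -2.06. Gata2, which GATA1 replaces as red cells mature, was lower, at -0.58 (SE 0.10), from 5.70 to 5.12, near the median level of all genes (5.41). The gene of PU.1, Spi1, was lower, at -1.40 (SE 0.20). The neutrophil list was higher in the same negative arrays, and the part of such cells in the progenitor list was not tested. Sox17, which is also an endothelial gene, was the member that was higher (0.55), at 5.26 and 4.72 in the 2 groups.

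Both fractions carried genes of dividing cells, and these split. Of 29 DNA replication genes 14 were higher and 7 lower, with a median of 0.41. Without negative array 1 that median was 0.62. Of 24 mitosis genes 15 were higher and 5 lower, with a median of 0.59. Mki67, the proliferation marker Ki-67, read 12.46, 12.34, 12.50 and 12.36 in positive and 10.91, 10.88, 10.57 and 10.50 in negative arrays (3.25-fold). The licensing factor Cdt1, the nuclease Fen1, E2f1 and the helicase subunit Mcm2 were 5.53-fold, 4.13-fold, 3.79-fold and 3.14-fold higher, and the mitotic kinase Plk1 3.23-fold. Gins2, a subunit of the same replicative helicase, was lower: it read 7.98, 7.95, 7.68 and 7.82 in positive and 9.93, 9.98, 10.23 and 10.16 in negative arrays, a 4.65-fold fall without overlap (adjusted p = 7.33e-11). Birc5 (survivin), the checkpoint kinase Ttk and the kinetochore gene Ndc80 were also lower, at -1.09, -1.18 and -1.09.

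Several genes that restrain the cell cycle were higher in positive cells. The list they belong to holds cyclin-dependent kinase inhibitors, growth arrest genes and also D-type cyclins and their kinases. Of its 17 measured genes 12 were higher (10 at least 2-fold) and 3 lower, with a median of 1.82. Cdkn1b, which encodes the inhibitor p27, read 9.98, 9.59, 10.06 and 9.69 in positive and 6.82, 6.53, 6.89 and 6.66 in negative arrays (8.61-fold, adjusted p = 4.75e-12). Cdkn2d (p19) was 9.73-fold higher, and the growth arrest genes Gadd45a and Btg2 10.4-fold and 8.24-fold. Cdkn1c (p57) read 9.05, 9.82, 9.23 and 9.93 in positive arrays, where replicates 2 and 4 were the highest, as they were for hepatocyte genes. The part of hepatocyte RNA in the Cdkn1c difference (3.42, SE 0.21) was not tested. Cdk6, the kinase whose loss accompanies erythroid differentiation, was lower, at -1.29 (SE 0.15). The other lower members were Rbl2 and Cdkn2b (-0.63), itself an inhibitor gene, so the inhibitors were not all higher.

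Ribosome genes were lower in positive cells. Of 25 ribosomal protein genes 18 were lower and 2 higher, with a median of -0.57, and of 22 genes of ribosome assembly 14 were lower and 1 higher, with a median of -0.65 (-0.99 without negative arrays 2 and 4). Fbl, the fibrillarin that methylates ribosomal RNA, read 8.96, 8.96, 8.23 and 8.66 in positive and 11.38, 11.20, 11.31 and 11.10 in negative arrays, a fall of 5.84-fold (adjusted p = 9.63e-10). Nop10, Gnl3 (nucleostemin), Wdr12 and Nop58 were lower, at -2.22, -2.09, -2.03 and -1.69. Rps4x read 11.48, 11.65, 11.54 and 11.50 in positive and 13.26, 13.46, 13.20 and 13.41 in negative arrays and was the ribosomal protein gene with the largest fall (-1.79), and Rpl14 fell by 3.3-fold. Rps2 and Rpl19 were higher by 0.51 (SE 0.08) and 0.59 (SE 0.11), and the assembly factor Bop1 by 0.83 (SE 0.18). Ribosomal protein genes have many near-identical pseudogenes, so their single values are uncertain.

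Respiratory chain genes showed no common direction. Of 22 genes 7 were higher, 7 lower and 8 not called, with a median of 0.02. Uqcrc1, a core subunit of complex III, was 6.28-fold higher (10.49, 10.40, 10.28 and 10.33 in positive and 7.66, 7.36, 8.20 and 7.68 in negative arrays). Cycs, cytochrome c, was 2.15-fold lower (10.74, 10.79, 10.76 and 10.76 in positive and 11.83, 12.06, 11.77 and 11.82 in negative arrays).

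Hepatocyte genes, which red cell precursors are not known for, were the list with the highest median increase, 3.99. The labels do not give the purity of either fraction. Of 28 measured members 27 were higher, all at least 2-fold, and 0 lower. The list mean was 10.32, 11.07, 10.47 and 11.00 in positive arrays 1 to 4 and 5.71, 6.72, 7.08 and 7.59 in negative arrays 1 to 4. Alb, serum albumin, read 13.48, 13.68, 13.56 and 13.70 in positive and 8.66, 10.42, 10.80 and 11.35 in negative arrays (3.30, SE 0.45, adjusted p = 1.05e-05). Afp, alpha-fetoprotein, read 12.73, 13.04, 12.79 and 13.02 in positive and 7.72, 9.42, 9.90 and 10.33 in negative arrays, and Ttr, transthyretin, 11.14, 12.03, 11.31 and 11.94 in positive and 6.30, 8.20, 8.31 and 9.23 in negative arrays. The negative arrays were spread widely for all 3 genes, with replicate 1 the lowest and replicate 4 the highest. Ahsg, the plasma glycoprotein fetuin-A, read 12.12, 12.85, 12.38 and 12.80 in positive and 5.12, 6.26, 6.58 and 7.31 in negative arrays and had the largest increase of all genes (6.22, SE 0.38). Hpx (hemopexin), Vtn (vitronectin), Apob (apolipoprotein B) and Fgb (fibrinogen beta) were higher by 5.69, 5.27, 5.18 and 5.04. Hnf4a, the nuclear receptor of hepatocyte identity, read 8.31, 8.96, 8.15 and 8.77 in positive and 5.11, 5.396, 5.38 and 5.53 in negative arrays. Foxa2 was the member not called, at 5.05 in positive and 5.11 in negative arrays, both below the median level of all genes.

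Some genes of hepatoblasts and bile duct cells were higher too. Of 9 measured genes 6 were higher and 3 not called, with a median of 0.51. Over the members whose brighter group mean was above 5.37, a filter that favours members that differ, the median was 1.23. Dlk1, a surface marker of hepatoblasts, read 10.73, 11.09, 10.82 and 11.23 in positive and 5.69, 5.49, 5.94 and 6.22 in negative arrays (35.1-fold, adjusted p = 6.43e-13). Igfbp1 was 7.7-fold and Cdh1 (E-cadherin) 5.44-fold higher.

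Most macrophage genes were higher in positive cells, and some that other myeloid cells share were lower. Of 27 measured members 19 were higher (17 at least 2-fold) and 4 lower, with a median of 1.38. Cd5l, a protein secreted by tissue macrophages, read 10.54, 10.56, 10.31 and 10.37 in positive and 4.19, 4.44, 4.19 and 4.48 in negative arrays, a 69.5-fold difference in these values (adjusted p = 1.28e-14). Its negative level was below the median of all genes, so that fold is nominal. Vcam1, the adhesion molecule by which island macrophages hold erythroblasts, read 9.52, 10.07, 9.76 and 9.72 in positive and 5.68, 5.80, 5.99 and 6.19 in negative arrays (14.4-fold). The scavenger receptor Marco, the factor Spic of iron-recycling macrophages and the phosphatidylserine receptor Timd4 were 15.4-fold, 13.9-fold and 11.8-fold higher. Their negative means (4.90, 3.99 and 5.08) were below the median of all genes too, so these folds are nominal as well. Adgre1, a surface marker of macrophages, Csf1r and the complement gene C1qa differed by less, 1.88 (SE 0.17), 2.18 (SE 0.22) and 1.25 (SE 0.14). Itgam (CD11b) and Lyz2 (lysozyme), which granulocytes and monocytes also express, were lower: Itgam read 5.18, 5.003, 4.84 and 4.97 in positive and 8.25, 8.31, 8.85 and 7.57 in negative arrays, and Lyz2 9.85, 10.15, 9.84 and 9.77 in positive and 12.63, 13.16, 12.81 and 12.75 in negative arrays. The neutrophil list was higher in the same negative arrays, and its part in the Itgam and Lyz2 differences was not tested.

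Genes of neutrophils and their precursors were the list with the largest shift. Of 22 genes 21 were lower in positive cells (20 at least 2-fold), 1 was higher, and the median was -4.84. The list mean was 5.37, 5.36, 5.15 and 5.17 in positive and 9.17, 9.40, 9.54 and 8.99 in negative arrays. S100a9, a calcium-binding protein of the neutrophil cytosol, read 6.24, 5.95, 5.44 and 5.50 in positive and 12.42, 12.77, 12.49 and 12.48 in negative arrays, a fall of 108-fold (adjusted p = 1.12e-13). Its partner S100a8 fell by 85.1-fold. Mpo (myeloperoxidase) and Elane (neutrophil elastase), the enzymes of primary granules made by promyelocytes, read 6.53, 5.99, 5.95 and 5.81 and 5.04, 5.15, 4.67 and 4.60 in positive arrays. In negative arrays they read 11.33, 11.01, 11.62 and 10.97 and 9.34, 9.69, 9.93 and 9.64. Genes of later granules were lower too: Ngp at -5.94, Camp (cathelicidin) at -5.74 and Mmp8 (collagenase) at -6.18. Cebpa, the factor that starts the granulocyte programme and also acts in hepatocytes, was the member that was higher (0.47, SE 0.19, adjusted p = 0.047). Its positive arrays 2 and 4 were highest (6.81, 7.50, 6.81 and 7.12), as for hepatocyte genes. Its adjusted p missed the threshold without positive array 2 or 4 (0.17 and 0.0939) and without negative array 1, 2, 3 or 4 (0.0534, 0.0879, 0.0503 and 0.114).

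The promoters of 3 of these genes are shown because they hold the letters AGGAAGT, a site that ETS factors such as PU.1 can bind. Each is again the 250 bases before the gene start in RefSeq (GRCm38.p6), on the gene's strand, all of them the plus strand, with the match in capitals. They are S100a8 at chr3:90668821-90669070, Mpo at chr11:87793534-87793783 and Elane at chr10:79886062-79886311, with the match starting 172, 223 and 84 bases before the gene start. In S100a8 it lies on the other strand and reads ACTTCCT. The genes were chosen after their values and matches were seen.
S100a8: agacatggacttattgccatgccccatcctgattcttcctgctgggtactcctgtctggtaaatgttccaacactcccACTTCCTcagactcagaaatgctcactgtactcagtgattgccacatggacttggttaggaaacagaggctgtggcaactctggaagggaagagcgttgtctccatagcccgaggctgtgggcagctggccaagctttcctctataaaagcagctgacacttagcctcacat
Mpo: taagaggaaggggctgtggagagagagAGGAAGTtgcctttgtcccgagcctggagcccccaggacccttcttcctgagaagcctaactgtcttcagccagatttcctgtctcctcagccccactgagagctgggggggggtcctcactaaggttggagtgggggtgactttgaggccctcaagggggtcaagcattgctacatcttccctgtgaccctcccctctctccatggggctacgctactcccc
Elane: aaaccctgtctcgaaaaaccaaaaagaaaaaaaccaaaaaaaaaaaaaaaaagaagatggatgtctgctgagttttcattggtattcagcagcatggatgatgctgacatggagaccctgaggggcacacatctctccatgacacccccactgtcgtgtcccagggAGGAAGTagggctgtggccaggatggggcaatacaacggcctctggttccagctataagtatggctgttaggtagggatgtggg
On either strand these letters occurred in 7.69% of all 32851 promoters, in 14 of the 47 promoters (29.8%) of genes at least 16-fold lower in positive cells, which belong to 13 genes, and in 1 of the 108 promoters (0.926%) of genes at least 16-fold higher. Among genes at least 2-fold changed the shares were 10.5% for lower and 5.75% for higher genes. No test was made on these shares, and the background again holds genes that could not be called.

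Some genes of mast cells, basophils and lymphocytes were lower in positive cells. The medians were -0.65 for mast cell and basophil, -0.31 for B cell and -0.24 for T and NK cell genes. Over the members whose brighter group mean was above 5.37, a filter that favours members that differ, they were -2.08, -1.36 and -1.47, so the size of these shifts depends on the dim members. The T and NK cell median was -0.16 without negative array 4. Of 13 mast cell and basophil genes 8 were lower and 1 higher. Cpa3, the mast cell carboxypeptidase, read 4.95, 4.76, 4.97 and 4.74 in positive and 9.95, 10.35, 10.21 and 10.34 in negative arrays, a fall of 41.1-fold in these values (adjusted p = 6.52e-14). Its positive level was below the median of all genes, so that fold is nominal. Ms4a2, the beta chain of the IgE receptor, was lower, at -3.41, and the histamine enzyme Hdc, at -2.65. Fcer1a, the alpha chain of that receptor, stayed near 3.87 and 4.05 and was not called. Of 16 B cell genes 7 were lower and 0 higher, led by Cd79b (-1.78) and the interleukin receptor Il7r (-1.60), while Cd79a was not called at 4.05 and 4.31. Of 13 T and NK cell genes 5 were lower, 1 higher and 7 not called, beside 29.1% lower and 23.5% higher over all genes. That count was not tested against this background. Nkg7, a granule membrane protein, read 4.98, 4.58, 5.47 and 4.56 in positive and 8.97, 9.14, 9.40 and 9.10 in negative arrays. That was a fall of 19.1-fold, nominal too, as its positive mean (4.90) was below the median of all genes. Cd3e was not called (-0.24, SE 0.11, adjusted p = 0.071), whereas Cd3d was lower, at -1.62.

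Megakaryocyte genes had no common direction. Of 14 measured members 2 were higher, 3 lower and 9 not called. The median was -0.24, but -0.52 without negative array 1 and -0.09 without negative array 3. Pf4, a platelet granule chemokine, read 11.11, 11.06, 10.93 and 11.44 in positive and 10.73, 11.77, 12.07 and 11.49 in negative arrays and was not called. Itga2b (CD41) and Vwf (von Willebrand factor) were higher by 1.92 (SE 0.32) and 1.57 (SE 0.29), and Plek (pleckstrin) was lower, at -1.42 (SE 0.30). The list mean varied most among negative arrays, at 8.23, 9.25, 9.57 and 8.97, with replicate 1 the lowest.

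Endothelial and stromal genes were higher in positive cells. Of 20 endothelial genes 17 were higher (11 at least 2-fold) and 1 lower, with a median of 1.33. Cdh5, the cadherin of endothelial junctions, read 8.25, 8.42, 8.37 and 8.74 in positive and 4.72, 5.07, 5.06 and 4.91 in negative arrays (11.4-fold, adjusted p = 7.94e-12). Stab1 and Stab2, the scavenger receptors of liver sinusoids, were 7.26-fold and 6.81-fold higher. Pecam1, which leukocytes and platelets also express, was not called (6.95, 7.21, 7.04 and 7.86 in positive and 6.94, 6.95, 7.98 and 6.67 in negative arrays). Fcgr2b, a receptor that B cells and myeloid cells also express, was lower, at -1.27 (SE 0.11).

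Of 20 stromal genes 14 were higher (11 at least 2-fold) and 2 lower, with a median of 1.13. Reln, reelin, a gene of hepatic stellate cells, read 9.38, 10.02, 9.50 and 10.03 in positive and 4.81, 5.14, 5.11 and 5.53 in negative arrays (24-fold, adjusted p = 1.47e-12). The niche factors Cxcl12 and Kitl, the ligand of KIT, were 6.69-fold and 5.43-fold higher. Dcn (decorin), Col1a1 (type I collagen) and Pdgfrb (a receptor of pericytes) were higher by 2.61, 1.37 and 0.93. Hgf, hepatocyte growth factor, and Vim, vimentin, were lower, at -1.67 (SE 0.19) and -0.90 (SE 0.14), and blood cells express vimentin too. None of 6 mesothelial genes was called, and Msln was at 4.78 and 4.92.

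Arrays within a group differed in these other cell types. In the positive group, replicates 2 and 4 had the higher list means for hepatocyte genes (10.32, 11.07, 10.47 and 11.00 for replicates 1 to 4), endothelial genes (6.43, 6.95, 6.64 and 7.41) and stromal genes (6.13, 6.76, 6.33 and 6.99). The same 2 arrays had the lower list means for red cell surface genes (10.77, 10.64, 10.75 and 10.57) and erythroid regulators (9.36, 9.16, 9.29 and 9.05). In the negative group, replicate 4 had the highest hepatocyte mean and the lowest mean for the membrane skeleton (8.13, 7.77, 8.12 and 7.49) and erythroid regulators (7.63, 7.27, 7.43 and 7.03), whereas replicate 1 had the lowest hepatocyte, globin and megakaryocyte means. Of these list means, the megakaryocyte ones alone overlapped between the fractions. Globin means were 5.56, 6.37, 6.12 and 6.79 in negative against 8.03, 7.42, 7.84 and 7.64 in positive arrays.

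**Figure D3:**
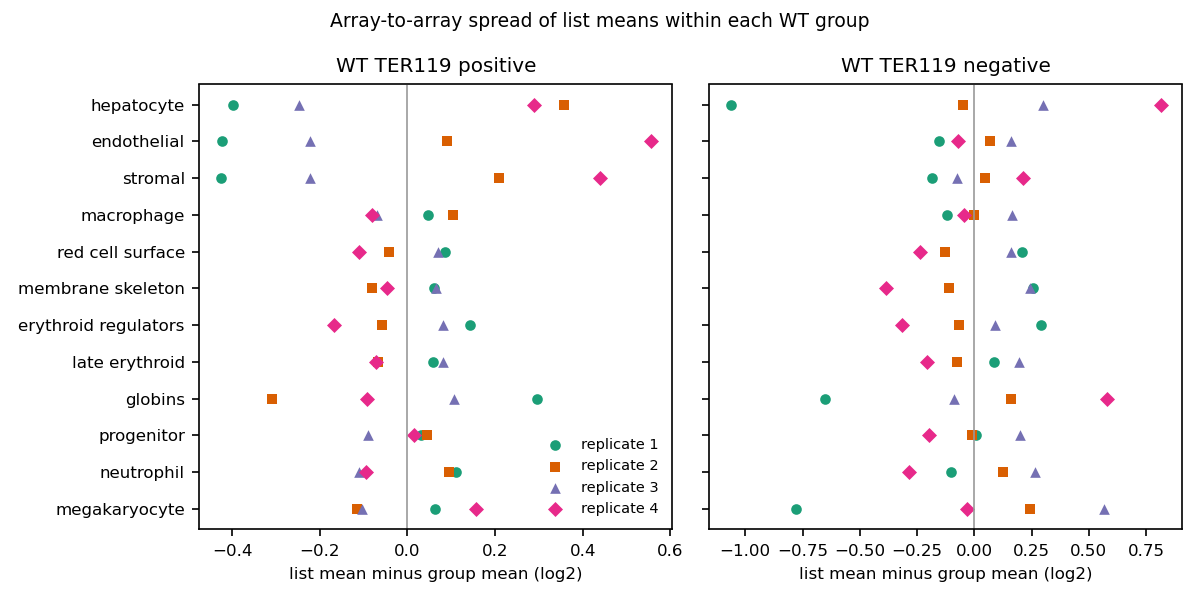
List mean minus the mean of its group (x axis, log2) for 12 gene lists (y axis) on each WT TER119 positive array (left panel) and each WT TER119 negative array (right panel, wider scale), with a symbol for each replicate number. Positive replicates 2 and 4 lie to the right for hepatocyte, endothelial and stromal genes and to the left for red cell surface genes, and negative replicate 1 lies far to the left for hepatocyte and megakaryocyte genes.

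The same fractions from KO-labelled embryos gave the same direction for nearly every large difference. In those arrays 9777 genes (49.0%) were called, 22.6% higher and 26.5% lower, and 11.5% were at least 2-fold higher and 10.3% at least 2-fold lower. Of the 2240 genes at least 2-fold higher in WT positive cells, 2228 were called higher in the KO-labelled arrays (99.5%), and of the 1866 at least 2-fold lower, 1848 were called lower (99%). Both contrasts shared an estimate of each gene's spread, and a call in the KO-labelled arrays needed no fold limit. The hepatocyte median was 5.04 there, the neutrophil median -4.26 and the red cell surface median 1.86. Klf3 itself read 10.55, 10.34 and 10.52 in KO-labelled positive and 8.02, 8.49, 8.74 and 8.09 in KO-labelled negative arrays, similar to WT. Which stretch of Klf3 was deleted is not stated in the labels, and a probe set outside that stretch checks nothing.

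The WT and KO-labelled differences themselves differed for 87 genes (0.436%) in the interaction test, among them 18 of the 2240 and 11 of the 1866. Of the 4106 genes called with at least a 2-fold change in WT, 2 had the opposite call in the KO-labelled arrays, Spi1 and C1qtnf12, the latter named after its values were seen. Spi1, the gene of PU.1, read 7.01, 6.75, 6.50 and 6.48 in WT positive and 8.27, 7.98, 8.59 and 7.51 in WT negative arrays, but 9.04, 9.06 and 9.03 in KO-labelled positive and 8.19, 8.0, 8.06 and 7.41 in KO-labelled negative arrays. The WT difference was -1.40 (SE 0.20) and the KO-labelled difference 1.125 (SE 0.22), with an adjusted p of 0.000216 for the interaction. C1qtnf12 read 5.68, 5.73, 5.60 and 5.45 in WT positive and 7.19, 7.01, 7.26 and 7.05 in WT negative arrays, with 9.09, 8.89 and 8.89 and 8.37, 8.10, 8.40 and 7.87 in the KO-labelled ones. Its interaction had an adjusted p of 1.03e-06. Hba-x differed by 2.42 (SE 0.45) in the KO-labelled arrays against 0.06 in WT, but the difference between these had an adjusted p of 0.219.

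**Figure D4:**
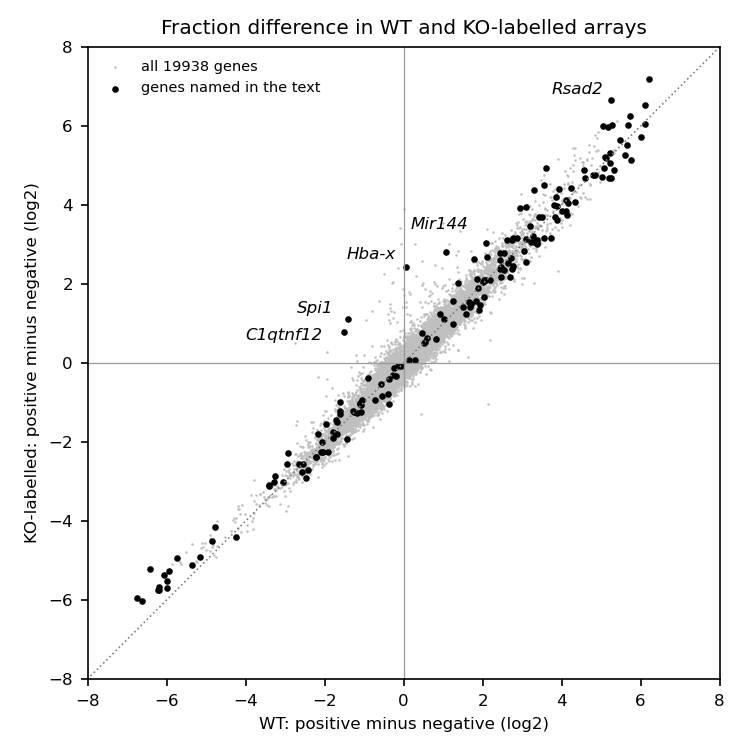
TER119 positive minus negative difference in WT arrays (x axis, log2) against the same difference in KO-labelled arrays (y axis, log2) for all 19938 genes (grey) and the genes named in the text (black); the dotted line marks equal differences. Most genes lie near the line, and Spi1 and C1qtnf12 lie in the upper left, lower in WT positive and higher in KO-labelled positive cells.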

How the data were processed

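Each deposited value was the log2 level of a probe set, made with RMA and Partek per the submitters' processing notes; the sources used here do not give their versions. RMA removes background, gives the arrays a common distribution and summarises the probes of a probe set, which compresses differences between dim signals. Values ran from 2.91 to 14.26 and array medians from 5.28 to 5.43. There are no detection calls, and the number of arrays limits the precision. It is not stated whether RMA was run once on all arrays.

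Of 35399 probe sets, 23410 were listed in the platform's gene table: 21789 with 1 symbol, 1621 with several, which were left out, and 11989 are unnamed here. Of those with 1 symbol, 21698 had an Entrez identifier in RefSeq (GRCm38.p6), which changed 0 symbols. For 999 genes the brightest of several probe sets was kept. A model of group means was fitted to all 15 arrays (limma 3.58.1 in R 4.3.3, empirical Bayes, no filter, no covariate, 11 residual and 4.91 prior degrees of freedom, prior SD 0.173). Tests were 2-sided with Benjamini-Hochberg adjustment over 19938 genes and a threshold of 0.05. The script was tested on simulated data.

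The 27 gene lists were written from general knowledge, and 4 genes stand in more than 1 list. The members and lists were chosen with earlier results of these data known. Genes named were drawn from the 10 largest rises and falls without overlap, each list's defining members, up to 6 members of a list in each direction, members called against the list's median, and Klf3. This rule sets which genes may be named, and not every gene it allows is named. Some members called against their list's median are therefore not named, although the counts of their lists include them. Foxa2, Prg3, Epx, Ear6, Igf2, Mest, Peg3, Grb10, Mir144, Mir451a, H2-Aa, Rsad2 and C1qtnf12 fall outside that rule and were chosen after their values were seen. Genes mentioned in passing, such as Xist, Ccr3, Cdkn2b and Rbl2, are not counted among the 174 named genes. Replicate numbers were not used to pair the fractions in the main fit. The alternatives changed the arrays in the fit, a filter on dim genes, the probe set, the scaling, the variance prior, a replicate block, a Y-linked covariate, the test and the replicates.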

Additional observations from a re-analysis of the deposited data

Results flagged for a closer look

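Among 348 groups of 4 arrays of named genes, 9 had an array whose gap to the nearest other exceeded Dixon's 95% critical value, which chance alone flags in about 1 in 20 groups. Negative array 3 stood above the others for Hmox1 (6.07 against 5.22 to 5.35), Adgre1 (7.54 against 6.85 to 6.96), Ttk (9.43 against 9.3 to 9.32) and Fcer1a (4.26 against 3.96 to 4.01). Negative array 1 stood above the others for Slc40a1 (8.18 against 7.61 to 7.68) and below them for Camp (9.99 against 10.66 to 10.75). Negative array 4 was below the others for Rpl14 (9.07 against 9.21 to 9.23) and above them for Mir144 (5.32 against 4.82 to 4.86). Positive array 2 was above the others for Spic (7.92 against 7.73 to 7.76). Each of these genes kept the 4 positive and the 4 negative arrays apart.

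Among the named genes the WT and the KO-labelled differences differed in the interaction test for 4, of 87 among all genes. Spi1 was lower in WT positive cells (-1.40) and higher in KO-labelled positive cells (1.125), a difference between the effects of -2.53 (adjusted p = 0.000216). C1qtnf12 likewise had -1.51 in WT and 0.77 in KO-labelled cells, a difference of -2.29 (adjusted p = 1.03e-06). Rsad2, an interferon-inducible antiviral gene, was higher by 5.24 in WT and by 6.65 in KO-labelled positive cells, a difference of -1.41 (adjusted p = 0.0031), and read 10.34, 10.79, 10.65 and 10.25 in WT positive and 5.002, 5.45, 5.17 and 5.44 in WT negative arrays. Mir144 was higher by 2.09 in WT and 3.04 in KO-labelled positive cells, a difference of -0.95 (adjusted p = 0.0285).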

How the results depend on the processing

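Across 18 other settings, the counts of genes past the threshold moved by more than 1.5 times only when limma tested against a 1.5-fold change in place of 0, which gave 2275 higher and 1958 lower genes in place of 4693 and 5793. Leaving out 1 array at a time gave 4410 to 4720 higher and 5201 to 6214 lower genes, and 2116 to 2369 higher and 1812 to 2028 lower at 2-fold. With the replicate number as a block in the 8 WT arrays, 4187 genes were higher and 4550 lower, and 2240 and 1870 at 2-fold. Deviations of same-numbered arrays correlated at -0.312 to 0.125, and 1 of 4 correlated best with its own number. Such correlations cannot tell whether arrays of the same number shared a litter or handling, and the labels do not say. Of 174 named genes, 165 passed the threshold and 154 kept their direction and side of it in every setting. Some genes that were not called changed sign. With 1 array left out, Hba-x ranged from -0.354 to 0.536, Foxa2 from -0.154 to 0.036 and Pecam1 from -0.069 to 0.411. With the Y-linked covariate Hba-x was -0.074 and Pecam1 -0.078, and without negative arrays 2 and 4 Pecam1 was -0.195. Hba-x (0.861, adjusted p = 0.0484) and Hbb-y (1.921, adjusted p = 0.0055) were called higher without negative arrays 2 and 4. The calls of Slc14a1 (adjusted p = 0.0557), Tmod3 (0.0607), Cebpa (0.0518) and Hbb-bh2 (0.105) were lost with the replicate block. The cause was not tested. Of 27 list medians, 8 moved by less than the array SD in every setting. The respiratory chain median, 0.022, was the list median that changed sign, to -0.019 without negative array 1.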

Other observations

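Several families that the lists above do not hold differed between the WT fractions. They were picked after their values were seen and are described without a test. The core of the proteasome was lower in positive cells: all 8 measured Psma genes (alpha subunits) and 10 of 11 Psmb genes (beta subunits) were lower, with median differences of -1.45 and -1.28, and Psmb11, a thymus-specific subunit, was not called. The regulatory particle did not follow, with 1 of 6 Psmc genes (ATPases) higher and 3 lower, and 7 of 14 Psmd genes (non-ATPase subunits) higher and 5 lower. Genes of the mitochondrial ribosome were lower, 32 of 48 Mrpl genes and 22 of 29 Mrps genes against 5 and 2 higher, at medians of -0.75 and -0.68. Of 14 Timm genes of inner membrane protein import, 10 were lower and 0 higher, with a median of -0.75. The Tomm genes of outer membrane import were less uniform, with 5 of 10 lower, 2 higher and a median of -0.36. The background over all genes was 29.1% lower and 23.5% higher.

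Eosinophil genes were lower in positive cells beside those of neutrophils. Of 7 measured, 6 were lower and the chemokine receptor gene Ccr3 was higher. Prg2, the major basic protein of eosinophil granules, read 6.04, 5.83, 5.997 and 5.60 in positive and 11.99, 12.20, 12.10 and 11.97 in negative arrays (-6.20, SE 0.13, adjusted p = 7.74e-15), and Prg3, Epx (eosinophil peroxidase) and Ear6 (a granule ribonuclease) were lower, at -3.40, -3.28 and -4.84. Ear6 belongs to a family of close copies, so its value is uncertain. Of 6 measured MHC class II genes 5 were lower, with a median of -0.79, and 1 of them at least 2-fold, H2-Aa at -1.96 (SE 0.21).

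Imprinted genes, which are expressed from 1 parental allele and many of which are active in fetal growth, were higher in positive cells. Of 15 measured, 13 were higher and 0 lower, with a median of 2.59, and Ndn and Nnat were not called. Igf2 read 10.47, 11.00, 10.54 and 10.97 in positive and 5.41, 6.32, 6.25 and 6.71 in negative arrays (4.57, SE 0.27, adjusted p = 5.34e-10). Peg3 read 9.06, 10.004, 9.20 and 9.80 in positive and 5.70, 5.80, 5.79 and 5.44 in negative arrays, Mest 9.87, 10.58, 10.28 and 11.06 in positive and 7.69, 8.70, 8.47 and 8.54 in negative arrays, and Grb10 9.88, 10.46, 9.95 and 10.55 in positive and 8.13, 7.46, 7.86 and 7.17 in negative arrays. For all 4 genes positive arrays 2 and 4 were the highest of their group, the arrays with the highest hepatocyte and stromal list means, and the part of those cells was not tested.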
